A study of Canis lupus familiaris with 32 samples.

Results

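Tumors of 5 Great Danes were compared with 20 tumors of other dogs among 32 canine osteosarcomas, each hybridized on a two-color cDNA array against a pool of cRNA from all the tumors. Breed was taken from the clinical data of the study through the tumor number in the sample titles. The 5 Great Dane tumors carried the numbers 4, 9, 12, 15 and 20. The 20 others came from 13 breeds and 3 crossbred dogs, and the 7 Rottweiler tumors were left out of the comparison. All were frozen surgical samples of spontaneous tumors in pet dogs, so that no inbred line or transgene was involved. The groups were not balanced. Of the Great Danes, 4 were short survivors (SS, under 6 months) and 1, tumor 20, was a long survivor (LS), whereas the others held 8 SS and 12 LS. The tumor was labeled with Cy5 on 2 Great Dane arrays (tumors 4 and 20) and with Cy3 on 3 (tumors 9, 12 and 15), against 11 and 9 of the other arrays. The Great Danes were 4 males and 1 female aged 4.25 to 7 years (median 5.67), and the other dogs were 10 males and 10 females aged 2.25 to 11.75 years (median 8.29). All 5 Great Dane tumors lay in a limb, against 14 of the other 20. All 5 dogs received chemotherapy after surgery, against 11 of 20, and 3 of 5 tumors were of high grade, against 16 of 20. Age and site therefore cannot be fully told apart from breed. The chemotherapy was given only after the tumors had been taken.

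Osteosarcoma is a malignant tumor whose cells lay down bone matrix. Giant and large breeds are known to carry a high risk of it, and the Great Dane, one of the tallest breeds, is among those affected. Growth hormone and insulin-like growth factors drive the long bones of such dogs to their size, and matrix genes such as COL1A2 and SPARC mark the osteoblastic cells. A bulk tumor sample also holds vessels, macrophages, lymphocytes, osteoclasts and muscle, and a lower level in it cannot tell fewer cells of a type from less RNA per cell.

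Each array gave 22176 probes, of which 7694 had 1 gene symbol (5246 genes) and 14482 had none. Values are log2 ratios of tumor over pool, with the base of 2 inferred, and the array medians ran from -0.03 to 0.02. The dye orientation had a large effect: the mean profiles of the Cy5 and the Cy3 arrays had a correlation of -0.66 across probes. It was called for 13123 probes in the 25-array fit and was a term of that fit together with the survival group. The direction of the ratio was checked on skeletal muscle genes: their mean reached 1.39 on 1 Cy5 array and 0.95 on 1 Cy3 array against medians of -0.29 and -0.30, so that the rare high sample lay on the tumor side in both orientations. Sex could not serve to check the match of clinical data to arrays, since limma called 0 probes by sex (smallest adjusted p = 0.168, 1749 probes at an unadjusted p under 0.05).

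No probe passed the threshold between Great Dane and other tumors. limma called 0 of 22176 probes (0%) at an adjusted p under 0.10, and the smallest adjusted p was 0.791. At an unadjusted p under 0.05 there were 818 probes (3.69%), 414 of them higher (1.87%) and 404 lower (1.82%) in the Great Danes. With 1 value per gene the count was also 0 of 5246 (0%), with 98 genes higher (1.87%) and 95 lower (1.81%) at an unadjusted p under 0.05. The median size of the difference was 0.10 on the log2 scale, and the median standard error was 0.15. The 95% interval lay within a 2-fold change either way for 91.3% of the probes and within a 1.5-fold change for 73.2%. A difference of over 2-fold was measured for 255 probes, of which 73 had an unadjusted p under 0.05. The genes that follow are therefore given as values, and none of them was called.

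TMEM38B had the smallest p of the higher probes. It encodes a potassium channel of the endoplasmic reticulum that supports calcium release, and its loss causes a form of osteogenesis imperfecta. Its log2 ratio was 0.295 in tumor 4 and 0.203 in tumor 20, where the 11 other Cy5 arrays ran from -0.70 through a median of -0.20 to 0.19. In tumors 9, 12 and 15 it was 0.61, 0.67 and 0.78, where the 9 other Cy3 arrays ran from -0.24 through 0.01 to 0.23. All 5 Great Danes thus lay above every other dog of their orientation, widely in Cy3 and narrowly in Cy5. The fitted difference was 0.58 (SE 0.12, 95% interval 0.33 to 0.83, unadjusted p = 6.92e-05, limma adjusted p = 0.791). Only 2 of the 22176 probes (0.00902%) separated the Great Danes in this way in both orientations and in 1 direction, TMEM38B and an unnamed probe, while 5 did so in opposite directions. TMEM38B had a single probe.

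LOC475709, a gene known by its locus number, was the second. It measured 0.57, 0.50, 0.63, 0.53 and 0.22 in tumors 4, 20, 9, 12 and 15. The other arrays ran from -0.37 to 0.45 in Cy5 and from -0.31 to 0.31 in Cy3, so that tumor 15 fell inside the range of the others. The difference was 0.48 (SE 0.10, unadjusted p = 7.13e-05). Averaged per gene, TMEM38B and LOC475709 shared an adjusted p of 0.187. Both passed 0.10 on that scale with the survival term left out (0.0597) and with array weights (0.0993), and LOC475709 also did so without covariates (0.081) and without the other-breed tumor 8 (0.0422).

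**Figure D1:**
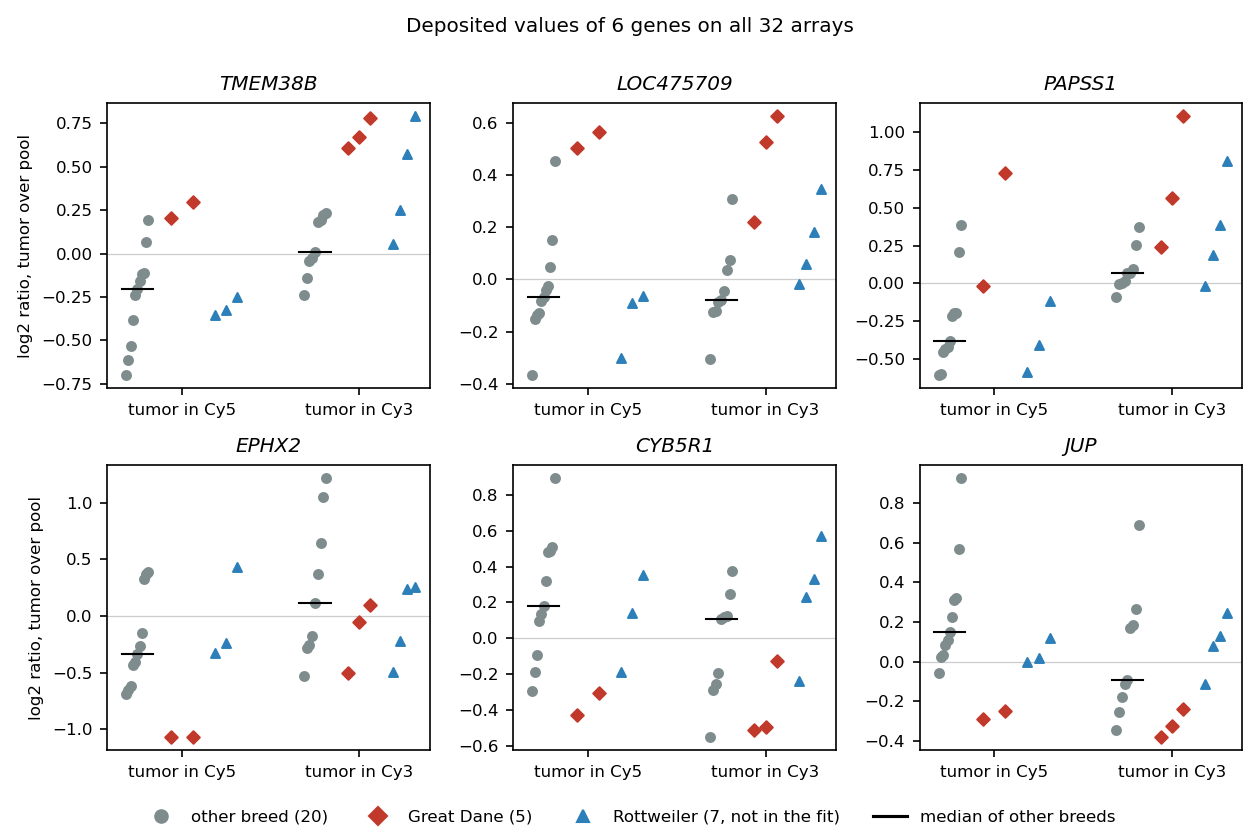
Deposited log2 ratios (vertical axis, tumor over pool) of 6 genes on all 32 arrays, by the dye that labeled the tumor. Gray circles are other breeds with their median as a line, red diamonds Great Danes and blue triangles Rottweilers, which the fit did not use. TMEM38B separates the Great Danes in both sets, while PAPSS1 overlaps in both and LOC475709, EPHX2, CYB5R1 and JUP overlap in Cy3.

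Among the other higher values were several metabolic enzymes. PAPSS1 makes the sulfate donor needed for the sulfation of cartilage and bone proteoglycans. It measured -0.02 and 0.73 in tumors 4 and 20 and 0.24, 0.57 and 1.11 in tumors 9, 12 and 15. The medians of the others were -0.38 in Cy5 and 0.07 in Cy3. The difference was 0.61 (SE 0.15), with overlap in both orientations. MAT2A, which makes the methyl donor S-adenosylmethionine, differed by 0.35 (SE 0.10), and its other 2 probes by 0.24 and 0.04. GMPPA, a regulator of GDP-mannose synthesis, differed by 0.33 (SE 0.10), and its 3 other probes lay slightly below 0. HAO2, a peroxisomal hydroxyacid oxidase, differed by 0.27 (SE 0.08). ETFRF1, a mitochondrial factor that acts on the electron transfer flavoprotein, differed by 0.64 (SE 0.16), but tumor 4 at 1.44 set much of this, and the difference was 0.41 without it. Its 12 other probes differed by -0.27 to 0.33, with 2 of them below 0.

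The higher set also held genes that act on chromatin, the nucleolus and membranes. SETD7, a lysine methyltransferase, measured 0.61 and 0.36 in tumors 4 and 20, above all Cy5 arrays of the other breeds (-0.26 to 0.35). In tumors 9, 12 and 15 it measured 0.19, -0.02 and 0.40, and the Cy3 arrays of the others ran from -0.42 to 0.27. Its difference was 0.38 (SE 0.10). DNTTIP2, a nucleolar protein, and RTF2, a factor at stalled replication forks, differed by 0.30 each (SE 0.08 and 0.09). The other DNTTIP2 probe differed by -0.20, and the 4 other RTF2 probes by -0.01 to 0.10. ITSN2, a scaffold of endocytosis, differed by 0.34, and by 0.22 without tumor 4, and its other 2 probes by 0.34 and 0.48. LOC478196 differed by 0.40 (SE 0.12), and its other 2 probes by 0.16 and -0.06.

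The lower values were led by LEAP2, a peptide that blocks the ghrelin receptor, with a difference of -0.45 (SE 0.12). It measured -0.37 and -0.56 in tumors 4 and 20 and -0.23, 0.15 and -0.35 in tumors 9, 12 and 15. Both Cy5 tumors lay under all others (-0.06 to 0.69), whereas in Cy3 the others ran from -0.24 to 0.24 and the difference within that orientation was only -0.10. EPHX2, the soluble epoxide hydrolase that degrades lipid epoxides, measured -1.07 in both tumors 4 and 20, under all Cy5 arrays of the others (-0.69 to 0.39). In tumors 9, 12 and 15 it measured 0.10, -0.50 and -0.05 among others that ran from -0.53 to 1.22. Its difference was -0.79 (SE 0.22), yet the other EPHX2 probe differed by 0.08 (SE 0.09), so the 2 probes of the gene did not give the same picture. CYB5R1, a cytochrome b5 reductase, differed by -0.53 (SE 0.16), and its other 2 probes by -0.38 and -0.03.

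Further down the lower values, JUP encodes plakoglobin, which links cadherins and desmosomes to the cytoskeleton. It measured -0.25 and -0.29 in tumors 4 and 20, where the others ran from -0.06 to 0.93. In tumors 9, 12 and 15 it measured -0.32, -0.38 and -0.24 among others from -0.345 to 0.69. The 5 Great Danes were close to each other (SD 0.07 after adjustment, against 0.29 in the others), and the difference was -0.47 (SE 0.15). MYO5B, a motor of vesicle recycling, differed by -0.54 (SE 0.17) and IFT88, a component of ciliary transport, by -0.41 (SE 0.12). SEZ6L2, a membrane protein best known from neurons, had the widest difference at -1.28 (SE 0.44), with Great Dane values from -2.92 to -0.60 that overlapped the others in both orientations.

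The remaining lower genes had diverse roles. DNAJC8, a J protein bound to the spliceosome, differed by -0.45 (SE 0.12), and its 3 other probes by -0.27 to -0.10. BHMT, which remethylates homocysteine, differed by -0.45 (SE 0.13). BCL2L13, a mitochondrial BCL2 family member, differed by -0.48 (SE 0.15), and by -0.32 without tumor 4, and its other probe by -0.21. SBF2, a myotubularin-related protein, differed by -0.71 (SE 0.23). POLR3B, the second largest subunit of RNA polymerase III, differed by -0.29 (SE 0.10).

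**Figure D2:**
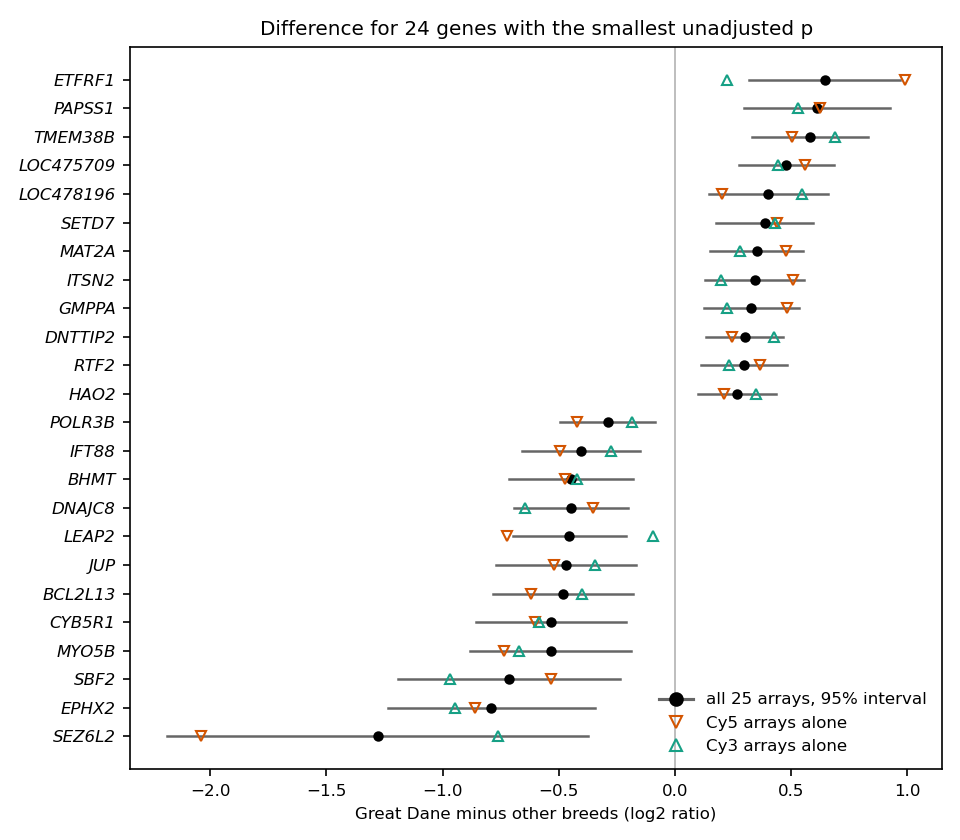
Great Dane minus other breeds on the log2 scale for the 12 genes with the smallest unadjusted p in each direction. Black points and bars are the fit of all 25 arrays with its 95% interval, and open triangles are the Cy5 and the Cy3 arrays fitted alone. All 24 have the same sign in both sets, which the choice by a small p favors, and no adjusted p is under 0.10.

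These 24 genes were chosen by their p, and their intervals carry that choice. Of them, 11 had further probes, 33 in all: 24 of the 33 differed in the direction of the named probe and 9 in the opposite one, and 2 had an unadjusted p under 0.05, both in the same direction. ETFRF1 alone gave 12 of the 33. On values adjusted for orientation and survival, the Great Danes and the others overlapped for all of the 24 genes but TMEM38B. The Rottweilers had no part in the choice. Their adjusted mean lay on the Great Dane side of the other-breed mean for 17 of 24 genes, but a mean that was low or high through the choice of genes favors that side. For TMEM38B the Rottweiler mean was 0.08 ± 0.32 (SD, n = 7), between the 0.48 ± 0.09 of the Great Danes (n = 5) and the -0.10 ± 0.23 of the others (n = 20). For LOC475709 it was 0.01 ± 0.23, and no Rottweiler passed the Great Dane mean of 0.46. The Mastiff, another giant breed, was represented by tumors 29 and 30, both within the other group. Tumor 29 lay on the Great Dane side for 8 of the 24 genes and tumor 30 for 16. Their adjusted TMEM38B values were -0.37 and 0.05.

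Genes bearing on coat color and body size were sparsely represented. Of 16 listed coat color and Great Dane trait loci, 3 were measured. MITF, the master regulator of pigment cells, differed by -0.385 (SE 0.22, 95% interval -0.84 to 0.07), with values of -0.66 and -1.02 in tumors 4 and 20 and of 0.25, 0.24 and 0.24 in tumors 9, 12 and 15. Each of these lay within the range of the other breeds. TYR, which encodes tyrosinase, differed by -0.21 (interval -0.47 to 0.05), and TYRP1 by 0.00 (interval -0.29 to 0.28). Of 34 growth axis genes 10 were measured, and their median difference was 0.00 against 0.01 over all genes. GHR, the growth hormone receptor, measured 1.94 in tumor 4, where the other Cy5 arrays reached 0.08, and -0.87 in tumor 20. In tumors 9, 12 and 15 it measured -0.45, -0.07 and -0.25, within the range of the others. Its difference was 0.14 (SE 0.36), with 0.93 in Cy5 and -0.22 in Cy3, so that 1 tumor stood high. IGF2R, which clears IGF2, differed by -0.29 (SE 0.22). SMAD2, a mediator of TGF-beta signals, differed by 0.26 (SE 0.17). IGFBP2, a binding protein of the insulin-like growth factors, differed by 0.35 (SE 0.60), with -0.67 in Cy5 and 1.65 in Cy3. Tumor 9 at 1.40 was above the other Cy3 arrays, which reached 0.54. Tumors 12 and 15, at -0.09 and -1.11, were above the median of those arrays (-1.37) but within their range.

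The breed difference was then measured separately in the Cy5 and the Cy3 arrays, which share no tumor, with the survival term kept. limma called 0 probes in either set, with 1447 and 1479 at an unadjusted p under 0.05. Across probes the 2 sets of differences had a correlation of -0.04 (Spearman -0.09), which is given as a description because probes are not independent. The sign was the same for 46.0% of the probes. An unadjusted p under 0.05 in both sets and in 1 direction was found for 30 probes (0.135%), 18 higher and 12 lower, and in opposite directions for 72 probes. The 30 held 13 named genes, among them TMEM38B, LOC475709, PAPSS1, SETD7, EPHX2, CYB5R1 and MYO5B of those above. They also held FAHD1, a mitochondrial acylpyruvase, with 2 of its 3 probes at 0.29 and 0.26 (the third, at 0.23, did not reach this in both sets), and CLK1, a kinase of splicing factors, with 0.80. SNRPB2, a U2 spliceosome protein, differed by 0.67 and RAD54L2, a chromatin remodeler, by -0.41.

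**Figure D3:**
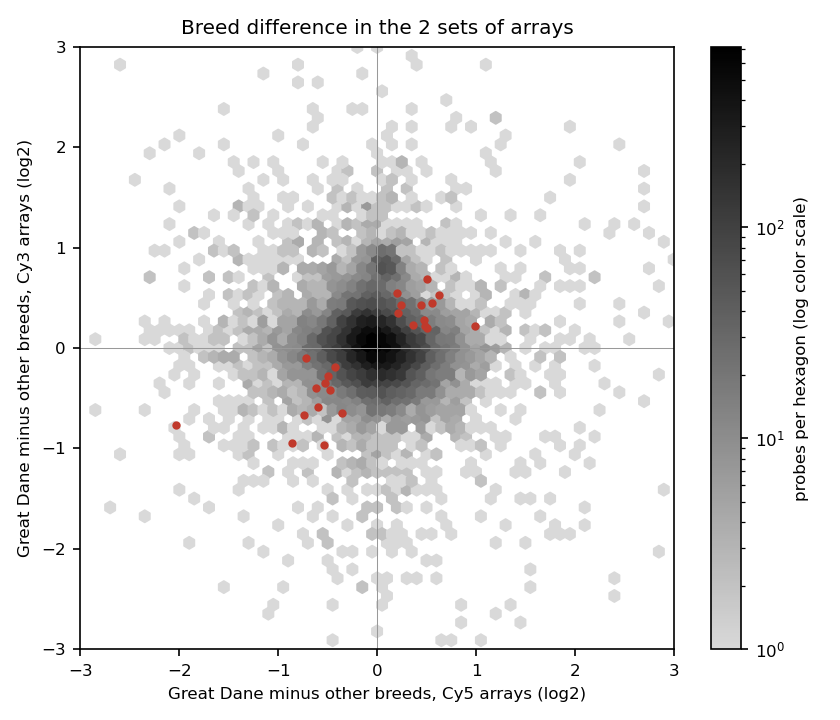
Great Dane minus other breeds for each probe in the Cy5 arrays (horizontal) and the Cy3 arrays (vertical), both log2, with gray shade for the number of probes on a log color scale and red points for the 24 named genes. The main cloud has no slope (correlation -0.04), a small second cloud sits near 0.08 and 0.82, and 86 probes lie outside the axes, which end at 3 either way.

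The second cloud in that plot was followed up after it was seen. It held 416 probes, 408 of them unnamed, that shared 1 profile over the 32 arrays (correlation above 0.98 with its median). Their median was 0.82 in the Cy3 difference, 0.08 in the Cy5 difference and 0.12 in the fit of all arrays, and none had an unadjusted p under 0.05. Their level ran from 0.38 to 2.33 on the Cy3 arrays of the other breeds and from 1.54 to 1.97 on those of the Great Danes. On the Cy5 arrays the level was below 0, from -2.22 to -0.27 in the other breeds and from -1.29 to -1.24 in the Great Danes. Leaving them out gave 0 calls and 822 probes at an unadjusted p under 0.05.

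An interaction of breed and orientation was called for 1 unnamed probe (limma adjusted p = 0.0729), and 1443 probes had an unadjusted p under 0.05. The Great Danes with Cy5 were tumors 4 and 20 alone, and the count rested on which of them was present. It was 825 without tumor 20, when tumor 4 was the only Great Dane of that orientation and was assumed to vary like the rest, and 12 without tumor 4.

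No member of any of 28 gene lists was called. With 1 value per gene, the list medians ran from -0.38 for B cell and plasma cell (2 genes) to 0.33 for adipocyte (2 genes), against 0.01 over all 5246 genes, of which 2718 lay above 0. For 9 of the 28 lists the median had the same sign in both orientations. Of 24 hypoxia and glycolysis genes, 18 lay above 0 with a median of 0.17, and 2 had an unadjusted p under 0.05, against 3.68% of all genes. The members ran from -1.44 to 0.52, so the widest difference was a lower one. Those named next had the smallest p, and all were higher. The enzymes PGAM1 and ENO1 differed by 0.52 (SE 0.20) and 0.47 (SE 0.21). ALDOA, an earlier step of glycolysis, differed by 0.44, and BNIP3, a mitochondrial target of hypoxia, by 0.51, each for the probe with the smallest p. The other probes were at 0.40 and -0.05 for ALDOA and at 0.09 to 0.36 for BNIP3. The list median was 0.17 in Cy3 and -0.01 in Cy5, a difference that was not tested, while PGAM1 and ENO1 were above 0 in both sets (0.34 and 0.44 in Cy5, 0.57 and 0.52 in Cy3).

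Other process lists were near 0 with few members standing out. Of 43 respiratory chain genes 29 lay above 0 (median 0.10), led by NDUFB8, a subunit of complex I, with 0.40 (SE 0.14) for 1 probe and 0.19 for another. Of 25 proteasome genes 20 lay above 0 (median 0.12, with 0.16 in Cy5 and -0.05 in Cy3), with PSMC2 at 0.30 (SE 0.13). Of 7 cell cycle genes 6 lay above 0 (median 0.17). MCM7, part of the replicative helicase, gave 0.53 for 1 probe and -0.11 to 0.03 for its other 4. CCNB2, a mitotic cyclin, gave 0.66 (SE 0.35), with tumor 15 at 2.59 and the other Great Danes from 0.05 to 0.55. FOXM1, a transcription factor of the mitotic program, gave 0.43 (SE 0.23). The 30 detoxification genes were divided, with 12 above and 18 below 0 (median -0.04). PON3, a lactonase, differed by -0.39 (SE 0.14) for 1 probe and by -0.21 for another. Of 12 Wnt genes 7 lay below 0, among them WIF1, a secreted Wnt inhibitor, at -1.94 with an interval from -4.12 to 0.24, and TLE1, a corepressor of Wnt targets, at -0.44 (SE 0.18). BMP6, a ligand that promotes bone formation, differed by -0.45 (SE 0.18). The 24 genes that the study tied to short survival were chosen on these same arrays. Their median was 0.07, with 15 above and 9 below 0.

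Among the cell type lists, osteoblast and bone matrix genes had a median of -0.33 (5 of 6 below 0), osteoclast genes -0.34 (4 of 6) and skeletal muscle genes -0.05 (16 of 21), whereas neutrophil and myeloid genes had 0.14 (10 of 12 above 0). These medians moved with tumor 4. Without it, the osteoblast median was -0.03, the osteoclast median -0.13, the muscle median -0.02 and the neutrophil and myeloid median -0.20. The neutrophil and myeloid median was also below 0 with arrays scaled to equal spread and with array weights. Without tumor 4 the proteasome median stayed at 0.12 (22 of 25 above 0) and the hypoxia and glycolysis median at 0.17 (19 of 24), while 10 of 12 antigen presentation genes lay below 0, and no member of a list was called.

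The 5 tumors were next described 1 by 1, as the deviation of each list's mean from the other breeds of its orientation. Tumor 4 stood apart. Of its probes, 7.67% lay over 2-fold from the median of the other arrays, the highest share of the 25 arrays (1.86% to 6.80% in the other breeds). Its array also had the widest spread of the 32, with a median absolute deviation of 0.51. Tumors 1, 2 and 3, also short survivors in Cy5, had wide arrays as well (0.47, 0.45 and 0.46). Their shares over 2-fold were 6.80%, 5.33% and 5.89%. The part of array spread in these shares was not tested. Its neutrophil and myeloid mean was 1.68, where the others ran from -0.68 to 0.73. Its antigen presentation mean was 1.35 (others -0.95 to 0.90) and its T and NK cell mean 0.42 (others -0.31 to 0.35). Its bone matrix mean was -1.02 (others -1.01 to 0.80) and its Wnt mean -0.69 (others -0.30 to 0.60). In all, 10 of 25 list means of tumor 4 lay outside the range of the other breeds, against 1 to 4 in each of the other Great Danes. No other-breed tumor was counted in this way, so the usual count for an array is not known. With only 11 other arrays in Cy5 and 9 in Cy3, a mean outside their range is not rare.

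Several single genes of tumor 4 deviated in the same directions from the median of the other Cy5 arrays, but not all list members did. The antibacterial enzyme LYZ deviated by 3.31 and 3.38 in its 2 probes, although another dog of that orientation was higher still. The lysosomal protease CTSS deviated by 2.66 and 2.94 and the neutrophil protein BPI by 1.74 to 4.03. The collagen gene COL1A2 deviated by -3.78 to -2.71 in 3 probes and SPARC, a calcium-binding matrix protein, by -2.76 to -2.04 in 5, and both lay under every other Cy5 array of the other breeds. SFRP4, a secreted Wnt antagonist, deviated by -2.64 and -2.58. The bone alkaline phosphatase ALPL measured -3.43 in tumor 4, near the lowest Cy5 value of the other breeds (-3.86). In the opposite direction, SPP1 of the bone matrix list measured 2.12, above all Cy5 arrays of the other breeds (up to 1.44). PHEX of that list measured 0.35 against a median of -0.12. In the T and NK cell list, NKG7 measured -0.459, under the other breeds (lowest -0.446), whereas CD3D measured 0.68, above them (up to 0.28). Tumor 4 was recorded as osteoblastic and fibroblastic.

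Tumor 9 was of another kind. Its hypoxia and glycolysis mean of 0.43 and its respiratory chain mean of 0.25 lay above the other Cy3 arrays, which reached 0.28 and 0.247. Its interferon response mean, over 3 genes, was 0.72 (others up to 0.68). IGFBP2 deviated from the median of the others by 2.22 and 2.77 and CA2, the carbonic anhydrase of osteoclasts, by 2.01 and 2.93. The osteoclast list as a whole did not stand out: its mean was 0.46 in tumor 9, within the range of the others (-1.14 to 0.63). CTSK of that list measured -0.46 against a median of 0.06. VIM, an intermediate filament of mesenchymal cells, deviated in 3 probes, by -1.36 in the one nearest to the median. DLA-DRA, a class II antigen-presenting molecule, deviated by -1.50 and -1.42, within the range of the other Cy3 arrays.

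Tumor 12, from the only female, deviated in single matrix genes, in both directions. The matrix lists as a whole did not stand out. The fibroblast and extracellular matrix mean was 0.175 (others -1.08 to 0.66) and the bone matrix mean 0.08 (others -2.38 to 1.53). DCN, a proteoglycan that binds collagen, differed from the median of the others by 1.90 and 1.93, COMP, a cartilage matrix protein, by 1.38 to 1.66 in 3 probes and COL12A1 by 1.24 and 1.49. COL5A2 deviated by -3.79 to -2.45 in 5 probes and COL2A1 by -1.44 and -0.99. The COMP and COL2A1 values lay within the range of the other Cy3 arrays. Its T and NK cell mean of -0.30 was under that of all other Cy3 arrays (-0.17 to 0.19).

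Tumor 15, recorded with a chondroblastic part, had the highest cell cycle mean of the 5, 0.67, where the other Cy3 arrays reached 0.51. Of that list, CCNB2 measured 2.59 and RRM1 2.47, where the others reached 0.61 and 0.56. The list was not high throughout: MCM7, in its probe of smallest p, measured -0.30 against a median of -0.03. FOXM1 measured -0.02 against a median of -0.40. The hypoxia and glycolysis mean of tumor 15 was 0.40 and its respiratory chain mean 0.30, again above the others. EIF3G, a translation initiation factor, deviated from the median of the others by 1.40 to 1.69 in 4 probes and HSPD1, a mitochondrial chaperone, by 0.90 and 0.95. B2M, the light chain of class I molecules, deviated by -1.32 and -0.94, within the range of the other Cy3 arrays. COL2A1, the main collagen of cartilage, measured -0.27 and -0.14 in its 2 probes, against medians of -1.08 and -0.32, within the range of the others.

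Tumor 20, the long survivor, was recorded as chondroblastic. COL2A1 was not high in it: its 2 probes measured -2.70 and -0.37, against medians of -1.78 and -0.39 in the other Cy5 arrays. FABP3, a fatty acid binding protein of muscle, deviated from the median of the others by 1.98 and 2.03. The skeletal muscle list was not high in this tumor: its mean was -0.25, and 9 of 11 other Cy5 arrays lay above it. DLA-DRA deviated by -1.41 and -1.34, SFRP4 by -1.52 and -1.30 and B2M by -0.90 and -0.87. The DLA-DRA and B2M values lay within the range of the other Cy5 arrays.

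**Figure D4:**
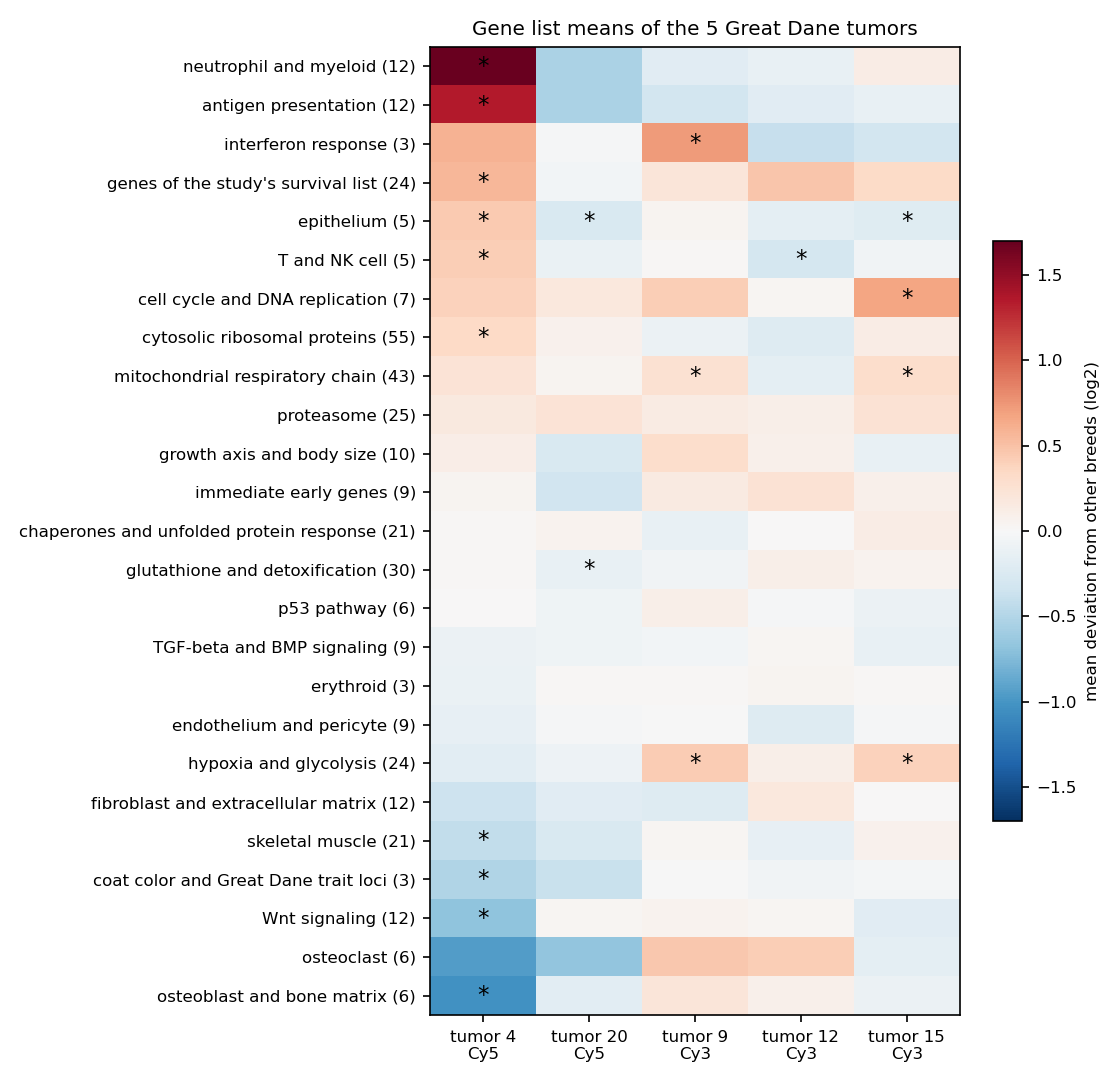
Mean deviation of 25 gene lists (rows, with the number of genes measured) from the other breeds of the same dye orientation, in log2 units by color, for the 5 Great Dane tumors (columns). A star marks a mean outside the range of those other breeds. Tumor 4 has 10 stars and the extremes of 1.68 and -1.02, and no row has a star of 1 direction in more than 2 tumors.

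The list means with the same sign in all 5 dogs, as deviations with no survival term, were those of the proteasome, the cell cycle, endothelium and pericyte, and the trait loci. The proteasome mean lay above 0 in every Great Dane, from 0.09 in tumor 12 to 0.25 in tumor 15, and the cell cycle mean from 0.03 to 0.67. With the survival term the proteasome median was -0.05 in Cy3, where all 3 Great Danes were short survivors. The proteasome values all lay within the range of the other breeds, whose SD was 0.21. The cell cycle value of tumor 15 was the only 1 of those 5 outside that range. The endothelium and pericyte mean lay below 0 in all 5 (-0.22 to -0.01), also within the range of the others. The mean of the 3 coat color and Great Dane trait genes lay below 0 in all 5 as well (-0.51 to -0.01), outside the range of the others in tumor 4 alone. In tumors 9, 12 and 15 it was only -0.01, -0.06 and -0.03. With the survival term the median of these genes was -0.44 in Cy5 and 0.14 in Cy3. Antigen presentation lay below 0 in 4 of 5 (-0.54 to -0.13) and was high in tumor 4.

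The likeness of the arrays was then compared between pairs of 1 orientation. With each probe centered on the other-breed mean, the 3 Great Dane pairs of the Cy3 arrays had correlations of 0.06, 0.15 and 0.13, and the pair of tumors 4 and 20 had 0.01. That centering lowers the values between other-breed arrays, so the probes were also centered on the arrays outside each pair, a choice made after seeing the data. The Great Dane pairs then had 0.05, 0.14 and 0.12 in Cy3 and 0.01 in Cy5. Pairs of other-breed tumors had medians of 0.09 in Cy3 (36 pairs, -0.22 to 0.32) and 0.08 in Cy5 (55 pairs, -0.08 to 0.31), and pairs of a Great Dane and another dog 0.09 in both (27 and 22 pairs). The 4 Great Dane pairs thus lay within the range of pairs of other breeds.

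**Figure D5:**
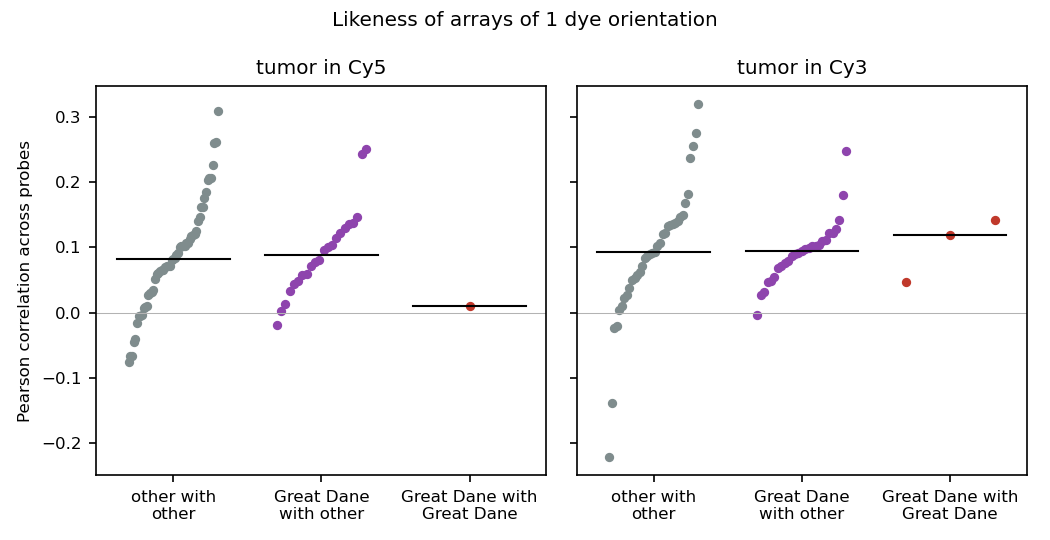
Pearson correlation across probes (vertical axis) between arrays of the same dye orientation, with each probe centered on the arrays outside the pair. Points are pairs of arrays and lines are medians; the 3 Great Dane pairs of Cy3 arrays (0.05 to 0.14) and the single pair of Cy5 arrays (0.01) lie within the spread of the other pairs.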

How the data were processed

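Spontaneous tumors of 32 dogs were profiled on two-color arrays against a common pool. Per the methods, the authors removed flagged spots, applied a Lowess fit within print tips, took logs, and turned the sign of arrays with swapped dyes. These deposited values were read as log2 ratios. The base of 2 is inferred. Scanner signals and background were not used here, so that the depth behind a value and its part in the precision are unknown. Of the arrays used, 5 values were missing and were left out of the fits of their probes. Of the probe annotations, 7340 matched a current gene identifier and 0 symbols changed. Differences were fitted in limma 3.58.1 (R 4.3.3) with breed, dye orientation and survival group over 25 arrays, and p-values were adjusted by Benjamini-Hochberg across the 22176 probes (threshold 0.10). Probes needed a value on at least 4 Great Dane and 18 other arrays, which all had. For lists, the probes of a gene were averaged. The named genes were the 12 with the smallest unadjusted p in each direction, since none was called, with up to 4 per list and all measured trait genes, each by its probe of smallest p. Genes of single tumors were those with at least 2 probes that deviated 1 way, by the smallest deviation. Members and lists were chosen with earlier results of these data known. The genes of single tumors and the 416 probes of 1 profile were chosen after seeing the data. The fit was tested on simulated data. Alternatives changed the covariates, samples, normalization, weights and threshold, and left out each array. No test was made of Rottweilers, Mastiffs or lists. Each dog gave 1 array, so p-values rest on the spread between dogs.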

Additional observations from a re-analysis of the deposited data

Results flagged for a closer look

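Among the 5 Great Dane tumors, 52 sets of values (27 genes and 25 list means) were searched for a tumor far from the other 4 with Dixon's criterion of 0.71, which chance passes in about 1 of 20 sets. Of these, 5 passed. Tumor 4 was the outlying tumor in 4 of them. Its antigen presentation mean was 1.348, against -0.54 to -0.13 in the other 4 tumors. Its erythroid mean, over 3 genes, was -0.1071 against 0.02 to 0.04, well within the -0.87 to 1.03 of the other Cy5 arrays. Its adjusted ETFRF1 value was 1.449 against 0.20 to 0.55, and its ITSN2 value was 0.7344 against 0.09 to 0.24. Tumor 15 was the outlying tumor for LOC475709, with 0.1711 against 0.48 to 0.58. The cause of these deviations was not tested.

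An unnamed probe was the only 1 with a called interaction of breed and dye orientation, a term of 8.613 on the log2 scale (limma adjusted p = 0.0729). It measured 2.23 and 6.09 in tumors 4 and 20, above the other Cy5 arrays (-4.04 to 0.21). It measured -2.38, -2.70 and -2.07 in tumors 9, 12 and 15, below the other Cy3 arrays (-0.76 to 3.25). With the sign of the Cy3 arrays turned, all 5 Great Danes were above the other dogs, and the probe was among the 3 called. The Rottweilers ran from -2.16 to 3.77 in Cy5 and from -1.36 to 2.27 in Cy3. The cause was not tested.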

How the results depend on the processing

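Of 20 other settings of the covariates, samples, normalization and threshold, 19 gave 0 called probes, as did all 25 fits that left out 1 tumor (0 to 0) and the fit without the 416 probes of 1 profile, which was chosen after seeing the data. With the sign of the Cy3 arrays turned, 3 unnamed probes were called, all 3 higher (smallest adjusted p = 0.0158). Probes at an unadjusted p under 0.05 ranged from 492 to 1479 over the alternatives. None of the 24 named genes was called in any of these fits over probes, and their sign changed only with the Cy3 sign turned, for 7 of 24. With 1 value per gene, LOC475709 and TMEM38B passed 0.10 without the survival term (0.0597) and with array weights (0.0993), and LOC475709 also without covariates (0.081) and without tumor 8 (0.0422). No member of a list was called in any of these settings.

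The interaction count of 1 became 0 with sex added, with grade added, with arrays scaled, at an adjusted p under 0.05 and with the Cy3 sign turned, 2 without crossbred dogs, 7 with array weights and 384 in short survivors only. Leaving out 1 tumor gave 0 to 825. It was 825 without tumor 20, 12 without tumor 4, 2 without tumors 1, 3, 12 or 18, and 0 without tumors 6, 9, 13, 14, 15, 19, 21, 28 or 31. The correlation of the orientations, -0.039, was 0.0149 without the survival term and 0.0149 without covariates. It was -0.0554 with sex added, -0.00678 with grade added, -0.0228 in short survivors only, -0.0595 with Rottweilers among the others, -0.0213 with arrays scaled and 0.039 with the Cy3 sign turned, and ran from -0.0623 to 0.0017 over the tumors left out, above 0 only without tumor 13. The median correlation of the Great Dane pairs, 0.0965, was 0.00989 in Cy5 alone and 0.311 in short survivors only, where 3 other Cy3 arrays set the centering. It ran from 0.0369 to 0.129 over the tumors left out. The causes were not tested.

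No paired analysis was possible because Great Dane and other-breed tumors share no replicate number. Few dogs, 2 and 3 per orientation, limit every Great Dane value. The breeds rest on the clinical data, whose match to the arrays could not be checked.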
